A study of Homo sapiens with 9 samples.

Results

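The DNA replication machinery was followed here as a set of 41 genes: the subunits of the replicative helicase, the factors that load and start it, the polymerases and clamp of the fork, and a few proteins that accompany S phase. The members were taken by gene symbol from the table of read counts, which held all 41 among 26485 symbols. All 41 passed the filter on low counts, as did 12845 symbols in all. RNA was sequenced from MV411 (also written MV4;11), an established line of human acute myeloid leukaemia that carries an MLL rearrangement. The 3 groups of 3 libraries each were parental cells, cells with the MYC substitution K148Q (glutamine in place of lysine) and cells with K148R (arginine in place of the same lysine). MYC is a transcription factor of growth and proliferation. All cells were untreated and cultured in RPMI. In the sample titles all libraries of a mutant carry the same name, Q2 for K148Q and R14 for K148R. The sources used here do not say whether a mutant group is 1 clone or a pool, nor how the substitution was made. Effects of a substitution therefore cannot be told apart from other differences of the cells that carry it.

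Before S phase, the origin recognition complex, CDC6 and CDT1 load a double ring of MCM2 to MCM7 onto origins. The kinase CDC7 with its activator DBF4, together with cyclin-dependent kinases, then converts the ring into an active helicase that contains CDC45 and the GINS complex. Behind the helicase, polymerase alpha with primase starts each strand, replication factor C loads the PCNA clamp, and polymerases delta and epsilon extend. Many of these genes are known targets of E2F transcription factors, whose activity rises when cells pass from G1 into S phase.

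Library depth ran from 13747087 to 18938391 counts, and values are normalised counts (CPM, scaled to library size). Of 10 markers of myeloid cells and of this line, all 10 averaged at least 1 CPM in each genotype, and their summed level ran from 1620 to 1650 CPM in parental, 2180 to 2250 CPM in K148Q and 3520 to 3580 CPM in K148R libraries. The list did not move as 1: LYZ was at 157.9 to 163.6 CPM in parental and 1628 to 1670 CPM in K148R libraries and CD4 at 218.7 to 239.2 and 716.3 to 761.6 CPM, whereas FLT3 was at 644.1 to 660.0 and 299.5 to 303.8 CPM and MEF2C at 158.9 to 162.6 and 32.7 to 41.1 CPM. Defining markers of T cells (CD3E), B cells (MS4A1) and epithelial cells (EPCAM) had 0 counts in all 9 libraries. The 5 markers of T and NK cells summed to 50 to 55.8 CPM in parental and 25.4 to 28.2 CPM in mutant libraries, with 1 of 5 at 1 CPM or more, and the 3 markers each of B and epithelial cells to at most 3.59 CPM. The 3 fibroblast markers summed to 3.27 to 5.82 CPM in K148R and at most 1.93 CPM in other libraries. The labels do not say that libraries came from separate cultures, so the p-values measure the spread between these libraries, which may be technical. When counts were compared between libraries of a group, the chi-square statistic divided by its degrees of freedom was 1.55 to 1.62 for parental and 3.03 to 5.22 for K148R pairs. It was 1.35 between K148Q replicates 1 and 2, but 17.8 and 18.3 between these and K148Q replicate 3. Results in K148Q cells are therefore given with and without that replicate.

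The replication genes fell as a block in K148R cells and changed little in K148Q cells. They took up 0.904% ± 0.00199 (SD, n = 3 libraries a group throughout) of all counts in parental libraries, 0.858% ± 0.0179 in K148Q and 0.149% ± 0.00108 in K148R libraries. All 41 fell in K148R against parental cells, with a median log2 fold change of -2.98, where 75.1% of all tested genes were called in either direction and 37.3% lower by edgeR's quasi-likelihood test with Benjamini-Hochberg adjustment and the median over all genes was 0.00 (-0.003). A fall of at least 2-fold was found for 40 of 41, against 14.8% of all genes, and a fall of at least 8-fold for 20 of 41, against 2.82%. Each of the 41 had its 3 K148R libraries below its 3 parental libraries, as did 40.2% of all genes (40.4% lay above). In K148Q against parental cells 4 of 41 rose and 14 fell, with a median of -0.06, where 53.3% of all genes were called, 27% higher and 26.3% lower. None of the 41 changed 2-fold there, against 6.68% of all genes called at least 2-fold lower and 4.71% at least 2-fold higher. The K148Q libraries lay wholly below the parental ones for 17 of 41 (29.7% of all genes) and wholly above for 6 (29.8%).

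**Figure D1:**
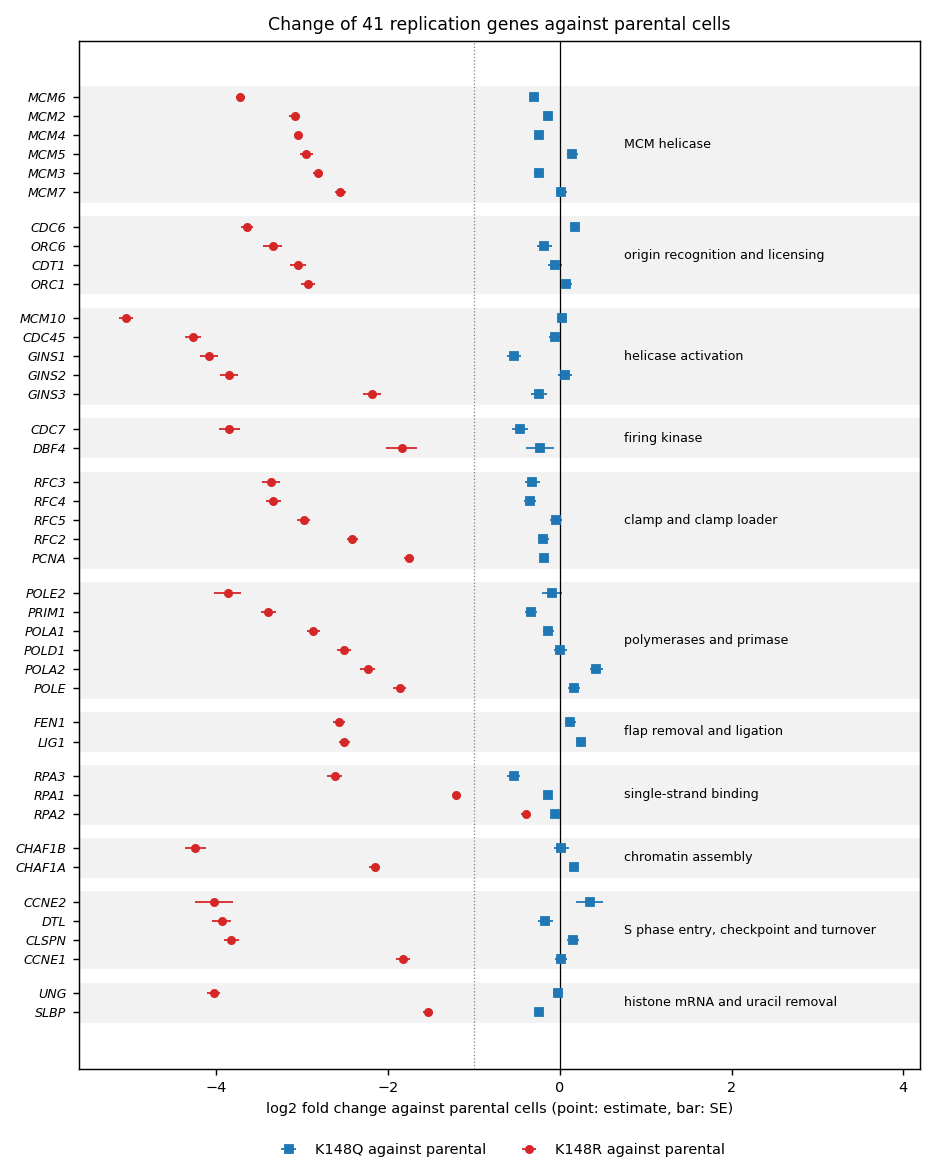
Log2 fold change against parental cells (horizontal axis, bars show the SE, dotted line at a 2-fold fall) of the 41 genes, grouped by role, for K148R (circles) and K148Q (squares), 3 libraries a group. All circles lie left of 0, from -5.05 for MCM10 to -0.40 for RPA2, while the squares lie between -0.54 and 0.43.

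In bulk RNA, fewer replicating cells and less mRNA per cell cannot be told apart. MKI67, a marker of cycling cells, was at 479.8 to 535.5 CPM in parental, 729.9 to 798.7 CPM in K148Q and 97.2 to 111.9 CPM in K148R libraries. The K148R libraries also differed in RN7SK, a non-coding RNA without a poly(A) tail: it was at 434.6 to 522.6 CPM there and at 3.72 to 16.0 CPM in the other 6 libraries. The part of these, or of the marker lists above, in the fall of the replication genes was not tested.

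**Figure D2:**
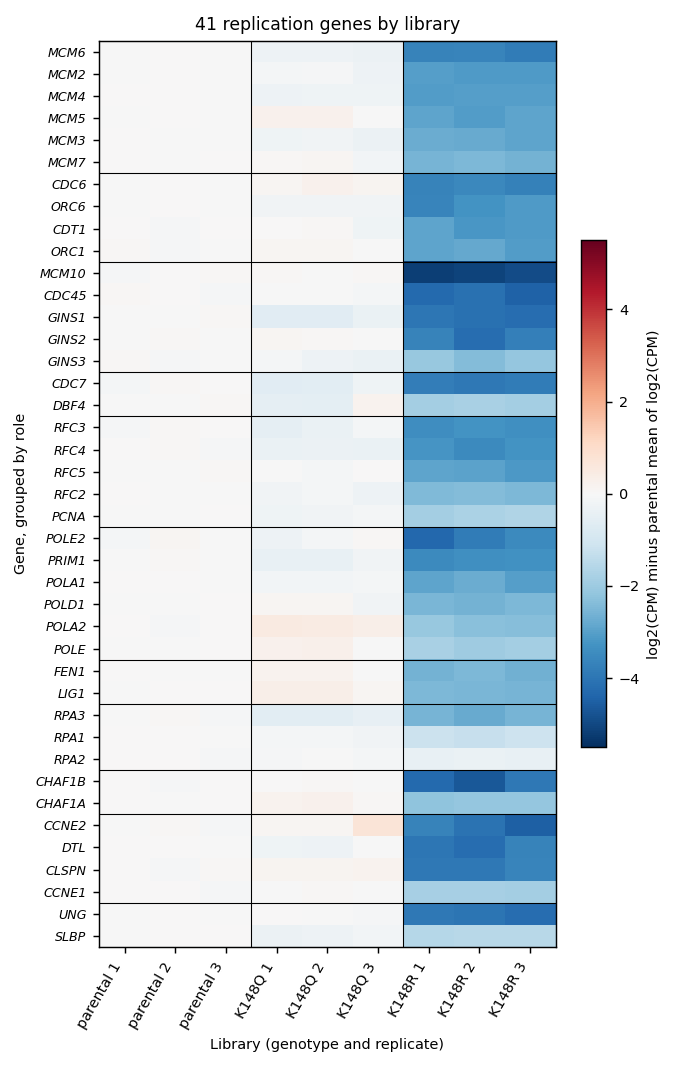
Difference of log2(CPM) from the parental mean (colour) for the 41 genes (rows, grouped by role) in each of the 9 libraries (columns). The 3 K148R columns are blue throughout, palest for RPA2, and the K148Q columns stay near 0, with replicate 3 differing from replicates 1 and 2 for genes such as DBF4 and CCNE2.

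The promoters of the 41 genes were searched for sequence they share. The set holds many known targets of E2F, so E2F letters shared by these genes describe how the set was chosen. A link to the fall in K148R cells was not tested. The comparison with all promoters took in genes outside the tested ones. RefSeq promoter windows (GRCh38.p14, 250 bases before to 50 after a start) were matched for 36 of the 41 genes, 44 windows in all, leaving MCM4, MCM5, CCNE2, RPA2 and RPA3. The E2F core letters TTCCCGC or the related TTCGCGC and also TTGCCGC or else TTGGCGC, on either strand and with overlapping matches counted separately, occurred in 31 of 44 windows (70.5%), against 13% of all 35116 windows and 28.6% of 42 windows of other replication genes. Counted by gene, 28 of 36 (77.8%) held them, against 15.3% of 27305 genes and 38.7% of 31 other replication genes. The E-box CACGTG, the best-known MYC binding sequence, occurred in the windows of 6 genes (CHAF1A, FEN1, MCM2, MCM7, RPA1 and UNG), 16.7% against 8.8% of all genes and 22.6% of 31 other replication genes. The letters CCAAT occurred in 55.6% of the 36 genes, against 39.7% of all genes and 61.3% of other replication genes. Counted by gene, the other replication genes thus had the higher share for CACGTG and CCAAT. Counted by window, CCAAT went the other way, with 56.8% for the members and 52.4% for other replication genes. The windows were also richer in G and C, with a median of 65.8% against 58.7%. The 28 genes with the E2F core letters had a median log2 fold change of -3.07 in K148R against parental cells (from -4.25 to -1.20), and the 8 without them -2.54 (from -5.05 to -1.53), so large and small falls occurred on both sides. These are matches of letters, not measured binding.

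The 180 bases before the start are shown for 4 genes that hold the letters there (MCM6, POLA1, CHAF1A and POLE, with log2 fold changes of -3.72, -2.87, -2.16 and -1.87 in K148R against parental cells) and for MCM10, which does not and fell most. They were chosen after the search, from genes with 1 listed start whose stretch lies nearly all outside annotated exons. Capitals mark the E2F core letters on either strand.
MCM6, chr2:135876444-135876623, minus strand: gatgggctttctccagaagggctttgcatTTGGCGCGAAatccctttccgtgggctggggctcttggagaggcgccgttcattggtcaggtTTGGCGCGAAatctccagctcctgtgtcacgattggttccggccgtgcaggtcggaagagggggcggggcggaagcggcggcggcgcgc
POLA1, chrX:24693738-24693917, plus strand: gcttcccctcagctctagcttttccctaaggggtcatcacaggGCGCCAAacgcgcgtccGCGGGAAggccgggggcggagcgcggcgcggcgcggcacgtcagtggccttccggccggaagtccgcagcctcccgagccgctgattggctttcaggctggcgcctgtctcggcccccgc
CHAF1A, chr19:4402460-4402639, plus strand: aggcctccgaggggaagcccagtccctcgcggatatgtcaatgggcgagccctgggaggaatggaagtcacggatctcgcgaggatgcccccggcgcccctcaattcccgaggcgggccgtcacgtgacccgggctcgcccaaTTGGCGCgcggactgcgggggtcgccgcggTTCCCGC
POLE, chr12:132687343-132687522, minus strand: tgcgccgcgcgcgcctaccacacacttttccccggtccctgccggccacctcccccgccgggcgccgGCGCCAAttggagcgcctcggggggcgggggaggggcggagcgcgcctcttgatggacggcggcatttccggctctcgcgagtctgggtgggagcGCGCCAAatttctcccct
MCM10, chr10:13161378-13161557, plus strand: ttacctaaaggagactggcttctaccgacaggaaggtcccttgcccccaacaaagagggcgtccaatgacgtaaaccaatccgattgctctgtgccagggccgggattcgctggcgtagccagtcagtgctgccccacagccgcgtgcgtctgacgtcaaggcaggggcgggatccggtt
In these stretches MCM6 has 4 matches that form 2 overlapping pairs, POLA1, CHAF1A and POLE have 2 matches each, and MCM10 has 0. CHAF1A is also one of the genes with the E-box.

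MCM2 to MCM7 form the ring that unwinds DNA. All 6 fell 5.88-fold to 13.2-fold in K148R against parental cells, and their summed level went from 4113 ± 15.1 CPM in parental to 3707 ± 194 CPM in K148Q and 515 ± 11.0 CPM in K148R cells (SD, n = 3). MCM6 (chromosome 2, 135839626 to 135876426), with positions of all genes given on GRCh38 as in GENCODE v29, was at 646, 652 and 643 CPM in the parental libraries, 525, 538 and 512 CPM in K148Q and 50.1, 51.7 and 45.6 CPM in K148R. It fell most of the 6 in K148R against parental cells (log2 fold change -3.72, SE 0.058, edgeR adjusted p = 1.07e-15), and its K148Q libraries also lay below all parental ones. MCM2 (chromosome 3, 127598223 to 127622436) was at 611, 632 and 614 CPM in the parental libraries, 578, 597 and 509 CPM in K148Q and 75.4, 71.7 and 71.04 CPM in K148R (K148R against parental log2 fold change -3.09, SE 0.064, edgeR adjusted p = 1.35e-14). MCM4 (chromosome 8, 47960185 to 47978160) was at 1214, 1214 and 1202 CPM in the parental libraries, 1005, 1039 and 1014 CPM in K148Q and 143, 149 and 147 CPM in K148R (log2 fold change -3.05, SE 0.045, edgeR adjusted p = 1.07e-15). For both genes no group overlapped another.

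MCM5 (chromosome 22, 35400063 to 35425430) was at 393, 396 and 392 CPM in the parental libraries, 458, 462 and 389 CPM in K148Q and 52.7, 46.8 and 52.9 CPM in K148R. For MCM5, K148Q replicates 1 and 2 lay above the parental range and replicate 3 just below it. MCM3 (chromosome 6, 52264009 to 52284881) was at 573, 570.5 and 570.5 CPM in the parental libraries, 491, 506 and 454 CPM in K148Q and 85.7, 82.5 and 75.7 CPM in K148R. MCM7 (chromosome 7, 100092728 to 100101940), which shares 392 bases of exon with AP4M1 on the opposite strand, was at 679, 662 and 675 CPM in the parental libraries, 709.5, 723 and 613 CPM in K148Q and 114, 119 and 109.9 CPM in K148R, with K148Q replicates 1 and 2 above and replicate 3 below the parental range. MCM7 fell least of the ring, by 2.55 on the log2 scale (SE 0.064, edgeR adjusted p = 7.78e-14), and the log2 fold changes of MCM3 and MCM5 were -2.81 and -2.95. In K148Q cells MCM3, MCM4 and MCM6 fell (-0.24, -0.25 and -0.30, edgeR adjusted p = 0.00202, 0.000155 and 0.000164), and MCM2 just missed the threshold (-0.14, edgeR adjusted p = 0.0507). MCM5 (0.15) and MCM7 (0.02) did not pass with all libraries and were called higher without K148Q replicate 3 (0.23 and 0.10).

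**Figure D3:**
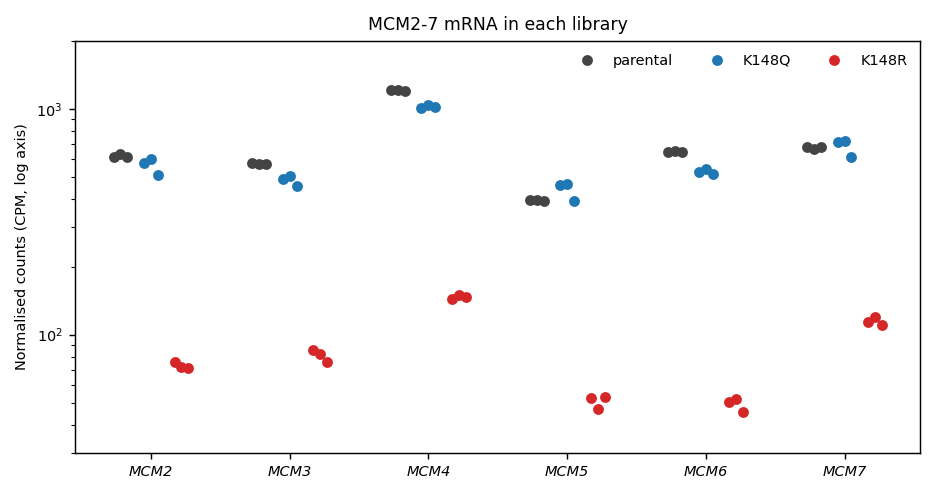
Normalised counts (CPM, log axis) of MCM2 to MCM7 in each library, 3 points per genotype. For each gene the K148R points lie below all others, and the K148Q points lie wholly below the parental ones for MCM2, MCM3, MCM4 and MCM6 but not for MCM5 and MCM7.

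The 4 factors that mark origins and load the ring fell 7.62-fold to 12.5-fold in K148R against parental cells. CDC6 (chromosome 17, 40287633 to 40304657), the loading ATPase, was at 124, 126 and 124 CPM in the parental libraries, 136, 146 and 140.0 CPM in K148Q and 9.85, 10.6 and 9.601 CPM in K148R. With all libraries it was the one licensing gene called in K148Q cells, where its 3 libraries lay above the parental ones (log2 fold change 0.17, SE 0.057, edgeR adjusted p = 0.018). It fell most of the 4 in K148R cells (log2 fold change -3.64, SE 0.07, edgeR adjusted p = 7.64e-15). The call in K148Q cells was lost in 5 of 18 alternatives, with adjusted p up to 0.0784, among them those without any 1 of the parental libraries or K148Q replicate 2. ORC1 (chromosome 1, 52372829 to 52404459), the largest subunit of the origin recognition complex, was at 94.1, 87.4 and 90.1 CPM in the parental libraries, 97.9, 98.6 and 88.7 CPM in K148Q and 12.1, 12.7 and 10.8 CPM in K148R, a fall by 2.93 on the log2 scale. CDT1, which brings the ring to origins, went from 129 ± 3.86 to 15.5 ± 1.75 CPM, and ORC6, the smallest subunit of the complex, from 42.6 ± 0.903 to 4.22 ± 0.74 CPM (SD, n = 3). In K148Q cells CDT1, ORC1 and ORC6 did not pass the test with all libraries (log2 fold changes -0.06, 0.07 and -0.18). Without K148Q replicate 3, ORC1 was called higher (0.13, edgeR adjusted p = 0.0486).

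The factors that turn the loaded ring into a moving helicase had the largest falls of any role, with a median of -4.09 in K148R against parental cells. MCM10 (chromosome 10, 13161554 to 13211104), needed to activate the helicase at the start of replication, was at 124, 132 and 134 CPM in the parental libraries, 134, 129 and 134 CPM in K148Q and 3.65, 3.795 and 4.34 CPM in K148R. It fell 33.1-fold, the most of the 41 (log2 fold change -5.05, SE 0.084, edgeR adjusted p = 2.18e-15), while its K148Q and parental libraries overlapped. CDC45 (chromosome 22, 19479459 to 19520612), a subunit of the active helicase, went from 80.01 ± 3.23 to 4.16 ± 0.485 CPM in K148R cells, a fall of 19.3-fold, and GINS2 from 84.4 ± 2.93 to 5.796 ± 1.05 CPM. GINS1 (chromosome 20, 25407727 to 25452628), another helicase subunit, was at 93.3, 93.1 and 99.1 CPM in the parental libraries, 60.9, 60.9 and 74.8 CPM in K148Q and 5.99, 5.49 and 5.26 CPM in K148R. It fell in both mutants, in K148Q cells with a log2 fold change of -0.54 (SE 0.082, edgeR adjusted p = 7.73e-05) and in K148R cells with -4.09. GINS3 (chromosome 16, 58295080 to 58406144) was at 40.2, 37.1 and 37.8 CPM in the parental libraries, 35.8, 31.4 and 29.9 CPM in K148Q and 9.14, 7.25 and 8.73 CPM in K148R. GINS3 fell least in this role (log2 fold change -2.19, SE 0.11, edgeR adjusted p = 9.33e-11), and its call in K148Q cells (-0.25, edgeR adjusted p = 0.0402) was lost in 7 of 18 alternatives, among them those without K148Q replicate 3 (adjusted p = 0.0553) and without each parental library.

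CDC7 is the catalytic subunit of the kinase that triggers origin firing, and DBF4 its activator. CDC7 (chromosome 1, 91500893 to 91525764) was at 64.6, 72.6 and 68.8 CPM in the parental libraries, 44.4, 46.4 and 58.6 CPM in K148Q and 4.84, 4.54 and 4.83 CPM in K148R. It fell in both mutants, with log2 fold changes of -0.46 in K148Q (edgeR adjusted p = 0.000993) and -3.85 in K148R cells (edgeR adjusted p = 8.2e-13). DBF4 (chromosome 7, 87876216 to 87909541) was at 67.95, 68.3 and 72.9 CPM in the parental libraries, 49.2, 47.8 and 80.8 CPM in K148Q and 19.2, 20.1 and 19.1 CPM in K148R. In DBF4 the K148Q libraries were split: replicates 1 and 2 lay below the parental range and replicate 3 above it, so that the difference did not pass with all libraries (-0.23, edgeR adjusted p = 0.259) and was -0.51 without that replicate (edgeR adjusted p = 9.94e-09). In K148R cells DBF4 fell by 1.84 on the log2 scale, with an SE of 0.18.

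PCNA, the sliding clamp, had the highest level per kilobase of exon of the 41 genes in all 3 genotypes. PCNA (chromosome 20, 5114953 to 5126626) was at 603, 599.9 and 615 CPM in the parental libraries, 515, 523 and 566 CPM in K148Q and 168, 180.2 and 190.3 CPM in K148R. It fell 3.38-fold in K148R cells (log2 fold change -1.76, SE 0.057, edgeR adjusted p = 1.01e-12), the least of its role. RFC3 (chromosome 13, 33818049 to 33966558), a subunit of the complex that opens the clamp, was at 81.2, 88.7 and 86.9 CPM in the parental libraries, 59.96, 66.8 and 78.6 CPM in K148Q and 7.94, 8.81 and 8.24 CPM in K148R. RFC4 (chromosome 3, 186789880 to 186807058) was at 91.9, 95.2 and 86.9 CPM in the parental libraries, 71.6, 73.8 and 70.8 CPM in K148Q and 9.63, 7.997 and 9.41 CPM in K148R. In K148R cells RFC3 and RFC4 fell 10.3-fold and 10.1-fold, and the log2 fold changes of RFC2 and RFC5 were -2.42 and -2.98. In K148Q cells 4 of these 5 genes fell, where 26.3% of all genes were called lower. They were RFC4 and RFC3 (-0.34 and -0.32, edgeR adjusted p = 0.000849 and 0.0069), and RFC2 and PCNA (-0.19 and -0.18, edgeR adjusted p = 0.0166 and 0.0124). The calls of RFC2 and PCNA were each lost when 1 of 2 libraries was left out, parental replicate 1 or 2 for RFC2 and parental replicate 3 or K148Q replicate 1 for PCNA, with adjusted p up to 0.0593 and 0.0581. RFC5 did not pass (-0.04).

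The 6 polymerase and primase genes fell 3.64-fold to 14.6-fold in K148R against parental cells. POLE2 (chromosome 14, 49643555 to 49688422), the second subunit of polymerase epsilon, was at 38.1, 43.8 and 39.9 CPM in the parental libraries, 33.8, 37.9 and 42.5 CPM in K148Q and 2.01, 2.85 and 3.53 CPM in K148R. It fell most in this role (log2 fold change -3.87, SE 0.15, edgeR adjusted p = 9.68e-12). POLE (chromosome 12, 132623753 to 132687365), the catalytic subunit of the same enzyme, was at 165, 164 and 170.2 CPM in the parental libraries, 195, 201 and 166 CPM in K148Q and 48.3, 43.1 and 45.4 CPM in K148R and fell least, by 1.87. POLA2 (chromosome 11, 65261762 to 65305589), the accessory subunit of polymerase alpha, was at 87.1, 81.3 and 87.8 CPM in the parental libraries, 121, 118 and 106 CPM in K148Q and 20.1, 17.1 and 16.9 CPM in K148R. POLA2 went in opposite directions in the 2 mutants: it rose by 0.43 in K148Q cells (SE 0.075, edgeR adjusted p = 0.000251) and fell by 2.24 in K148R cells (edgeR adjusted p = 4.98e-12). PRIM1 (chromosome 12, 56731596 to 56752373), the catalytic primase subunit, was at 107, 114 and 108 CPM in the parental libraries, 82.1, 82.4 and 94.5 CPM in K148Q and 9.74, 10.6 and 10.8 CPM in K148R. It fell in both mutants (log2 fold changes -0.34 in K148Q and -3.39 in K148R cells, edgeR adjusted p = 0.000993 and 6.9e-14). POLA1 and POLD1, the catalytic subunits of polymerases alpha and delta, fell in K148R cells (-2.87 and -2.51). With all libraries they did not pass in K148Q cells (-0.13 and 0.01).

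FEN1 removes the RNA-primed flaps between Okazaki fragments and LIG1 seals the nicks that remain. FEN1 (chromosome 11, 61792637 to 61797244) was at 313, 303 and 303 CPM in the parental libraries, 345, 353 and 301 CPM in K148Q and 51.1, 54.5 and 48.6 CPM in K148R. LIG1 (chromosome 19, 48115445 to 48170603) was at 229, 233 and 232 CPM in the parental libraries, 289, 285 and 252 CPM in K148Q and 41.4, 40.9 and 39.6 CPM in K148R. Both fell by similar amounts in K148R cells (-2.58 and -2.51 on the log2 scale, SE 0.07 and 0.064). LIG1 rose in K148Q cells (log2 fold change 0.25, SE 0.058, edgeR adjusted p = 0.0021), with all 3 libraries above the parental ones, and FEN1 did not pass with all libraries (0.12, edgeR adjusted p = 0.126) but was called higher without K148Q replicate 3 (0.20, edgeR adjusted p = 7.35e-05).

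Replication protein A, the trimer that coats single-stranded DNA in replication and repair, fell least of the roles, and unevenly. RPA2 (chromosome 1, 27891524 to 27914746) was at 172, 173 and 165 CPM in the parental libraries, 165, 166 and 159 CPM in K148Q and 127, 131 and 129 CPM in K148R. It fell 1.32-fold in K148R cells (log2 fold change -0.40, SE 0.051, edgeR adjusted p = 5.3e-06), the smallest fall of the 41 and the one that was not called when the test asked for a change beyond 1.5-fold. RPA3 (chromosome 7, 7636518 to 7718607), the smallest subunit, was at 51.2, 53.7 and 49.1 CPM in the parental libraries, 33.9, 34.7 and 37.4 CPM in K148Q and 8.71, 7.59 and 8.61 CPM in K148R. RPA3 fell 6.16-fold in K148R cells and 1.45-fold in K148Q cells (log2 fold change -0.54, SE 0.079, edgeR adjusted p = 5.1e-05), and both mutant groups lay below the parental one. RPA1 (chromosome 17, 1829702 to 1900082), the large subunit, fell from 329.5 ± 1.81 to 143 ± 6.09 CPM in K148R cells (2.3-fold). Its small fall in K148Q cells (-0.14, edgeR adjusted p = 0.0335) was lost in 6 of 18 alternatives, with adjusted p up to 0.0909, among them those without any 1 of the parental libraries or K148Q replicate 1.

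CHAF1A and CHAF1B are subunits of the chaperone that deposits new histones behind the fork. CHAF1B (chromosome 21, 36385378 to 36419015) was at 60.3, 56.6 and 59.8 CPM in the parental libraries, 59.7, 62.1 and 57.3 CPM in K148Q and 3.05, 2.304 and 3.902 CPM in K148R, a fall of 19-fold in K148R cells (log2 fold change -4.25, SE 0.12, edgeR adjusted p = 2.82e-13). CHAF1A (chromosome 19, 4402662 to 4445018) was at 205, 202 and 207 CPM in the parental libraries, 238, 239 and 214 CPM in K148Q and 43.9, 47.6 and 46.4 CPM in K148R, a fall of 4.46-fold (log2 fold change -2.16, SE 0.062, edgeR adjusted p = 2.69e-13). In K148Q cells CHAF1B overlapped with parental cells, and CHAF1A, whose K148Q libraries lay above the parental ones, was called higher (0.17, edgeR adjusted p = 0.0231), a call lost in 6 of 18 alternatives, with adjusted p up to 0.0896, among them those without any 1 of the parental libraries or K148Q replicate 1 or 2.

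Cyclins E1 and E2 drive entry into S phase, CLSPN carries the replication checkpoint signal and DTL directs the destruction of CDT1. CCNE2 (chromosome 8, 94879770 to 94896678) was at 52.6, 56.8 and 51.4 CPM in the parental libraries, 57.6, 57.9 and 88.8 CPM in K148Q and 4.14, 3.19 and 2.42 CPM in K148R. K148Q replicate 3 lay far above the other 2 K148Q libraries for CCNE2, and the difference between K148Q and parental cells did not pass (0.35, edgeR adjusted p = 0.0914). Of CCNE2's exon length, 37% overlaps INTS8 on the opposite strand, and the sources used here do not say whether counting used strand. CCNE1 (chromosome 19, 29811898 to 29824308) was at 36.2, 36.5 and 34.5 CPM in the parental libraries, 35.1, 37.7 and 35.5 CPM in K148Q and 10.2, 10.1 and 9.85 CPM in K148R. In K148R cells CCNE1 fell 3.55-fold and CCNE2 16.3-fold (-1.83 and -4.03 on the log2 scale, SE 0.083 and 0.22). CLSPN went from 111 ± 5.63 to 7.86 ± 0.967 CPM and DTL from 149.6 ± 2.88 to 9.73 ± 1.78 CPM in K148R cells (SD, n = 3). In K148Q cells CCNE1, CLSPN and DTL did not pass the test with all libraries (log2 fold changes 0.01, 0.16 and -0.17).

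The last role joins SLBP, which binds the stem-loop of histone mRNAs, and UNG, which removes uracil from DNA. UNG (chromosome 12, 109097574 to 109110992) was at 173, 179.8 and 172 CPM in the parental libraries, 175, 174 and 169.7 CPM in K148Q and 11.6, 10.7 and 9.72 CPM in K148R, a fall of 16.3-fold in K148R cells (log2 fold change -4.03, SE 0.072, edgeR adjusted p = 4.14e-15) with overlapping K148Q and parental libraries. SLBP (chromosome 4, 1692800 to 1712555) was at 218, 224 and 221 CPM in the parental libraries, 179, 183 and 197 CPM in K148Q and 73.9, 77.1 and 77.7 CPM in K148R, a fall of 2.9-fold (log2 fold change -1.53, SE 0.056, edgeR adjusted p = 3.8e-12). SLBP also fell in K148Q cells, by 0.24 on the log2 scale (edgeR adjusted p = 0.00162).

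K148R and K148Q cells were also compared directly. All 41 genes were lower in K148R cells (median log2 fold change -2.95, median over all genes 0.02), where 71% of all tested genes were called, 34.5% lower and 36.6% higher, by edgeR's quasi-likelihood test, and for each of the 41 the 3 K148R libraries lay below the 3 K148Q libraries, as for 34.5% of all genes (37% lay above). The differences ran from -5.08 for MCM10 to -0.34 for RPA2, 40 of 41 were at least 2-fold (12.1% of all genes were called at least 2-fold lower) and 17 of 41 at least 8-fold (2.16%). A term for the replicate number left all 41 calls in place (median -2.94). This comparison and that with parental cells share the K148R libraries.

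In K148Q against parental cells the changes were small and divided between genes. Beside the called genes, MCM2, ORC6 and POLA1 lay wholly below and CCNE2 and CLSPN wholly above the parental range without passing the test. The 14 genes that fell were MCM3, MCM4, MCM6, GINS1, GINS3, CDC7, PCNA, RFC2, RFC3, RFC4, PRIM1, RPA1, RPA3 and SLBP, and the 4 that rose were CDC6, POLA2, LIG1 and CHAF1A. The largest changes were those of RPA3 and GINS1 (-0.54 each), CDC7 (-0.46) and POLA2 (0.43). Of these 18 calls, 12 held in all 18 alternatives that kept the same null hypothesis of no change (10 falls and 2 rises), and none held against a 1.5-fold threshold. The split depended on the settings, and the shares over all genes moved with it. With upper quartile scaling 2 rose and 18 fell, against 23.7% and 29.7% of all genes. With scaling to library size alone 7 rose and 13 fell, against 28.5% and 24.9%. When any 1 of the 3 parental libraries was left out 2 rose, against 22.6% to 22.9% of all genes. Without K148Q replicate 3, 11 rose and 16 fell: the 4 rises and 13 of the 14 falls remained, and MCM5, MCM7, ORC1, POLE, POLD1, FEN1 and CLSPN were added to the rises and DBF4, POLA1 and DTL to the falls. Over all genes, 64.2% were called in that fit, 32.4% higher and 31.9% lower, so the share of the 41 called in either direction lay near that of all genes.

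The deviation of K148Q replicate 3 followed base composition within this set of genes. Its log2 difference from the mean of replicates 1 and 2 ran from -0.30 to 0.74 over the 41 genes, with a Spearman correlation of -0.91 (-0.915, Pearson -0.82) to the GC content of their annotated transcripts, which ran from 38.5% in CCNE2 to 65.2% in CDT1. The log2 fold change of K148Q against parental cells correlated with GC content at 0.44 with all libraries and at 0.62 without that replicate, and that of K148R against parental cells at 0.38. These are Spearman correlations across 41 genes that share the same libraries, given as a description. The part of base composition in the K148Q changes was not tested.

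**Figure D4:**
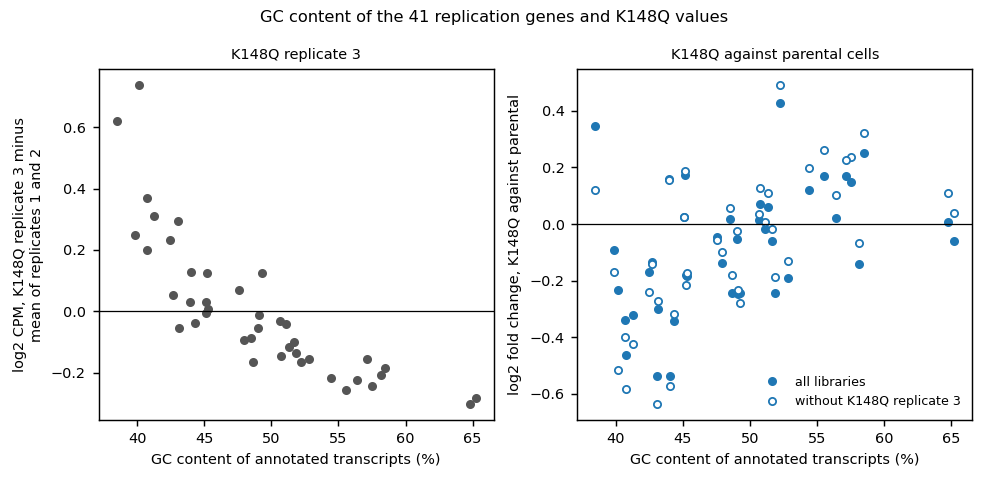
GC content of annotated transcripts (horizontal axis, %) of the 41 genes against the log2 difference of K148Q replicate 3 from replicates 1 and 2 (left) and against the log2 fold change of K148Q against parental cells with all libraries (filled) and without K148Q replicate 3 (open, right). On the left the points descend from 0.74 for DBF4 to -0.30. On the right both sets of points tend upwards, with Spearman correlations of 0.44 and 0.62.

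A further 40 genes of replication fell less uniformly in K148R against parental cells than the members did. Both lists drew on textbook knowledge but were chosen with earlier results of these data known. The contrast between them depends on which subunits were placed in which list, so it is a description and not an independent result. Of the 40 genes, 33 fell and 5 rose, against 37.3% and 37.8% of all genes, with a median of -1.91. At least 2-fold falls were found for 26, against 14.8% of all genes. The largest falls were those of DSCC1, a part of an alternative clamp loader, from 81.8 ± 4.67 to 4.51 ± 0.829 CPM, ATAD5, which unloads PCNA, from 49.99 ± 2.22 to 3.62 ± 0.0918 CPM, and MCM8, a relative of the helicase subunits that acts in recombination, from 70.4 ± 1.54 to 5.51 ± 0.98 CPM. The 5 that rose were POLD4, POLE4, MCM9, TOP1 and MCMBP. POLD4, the smallest subunit of polymerase delta, went from 46.8, 45.1 and 44.4 CPM in parental to 102, 104 and 86.2 CPM in K148R libraries (log2 fold change 1.10, SE 0.11, edgeR adjusted p = 6.98e-07). TOP1, the topoisomerase that relaxes supercoils, went from 259 ± 5.72 to 358 ± 5.83 CPM, and MCM9 from 16.4 ± 0.83 to 27.5 ± 0.882 CPM. POLE4 (28.8 ± 0.677 and 43.1 ± 2.29 CPM) and MCMBP (292 ± 3.17 and 346 ± 28.8 CPM) rose less, and MCMBP did not pass without K148R replicate 3 (0.17, edgeR adjusted p = 0.0532). In K148Q against parental cells MCM9, POLE4 and POLD4 also rose (0.88, 0.68 and 0.42), while TOP1 and MCMBP did not pass (-0.05 and -0.03). ORC4 and ORC5 did not pass (-0.23 and -0.25, edgeR adjusted p = 0.25 and 0.124), ORC4 being named after its values were seen. Without K148Q replicate 3 both were called lower (-0.24 and -0.26, edgeR adjusted p = 0.0106 and 0.00246), as they were in a fit of only the groups compared (edgeR adjusted p = 0.014 and 0.00363). ORC4 was also called with the replicate number as a block (edgeR adjusted p = 0.0486). In K148Q against parental cells 8 of the 40 rose and 13 fell (median -0.03), against 27% and 26.3% of all genes, and 15 rose and 18 fell without K148Q replicate 3, against 32.4% and 31.9%.

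Set beside these genes, the falls were unequal within several complexes in K148R cells. In the origin recognition complex, the log2 fold changes were -2.93 for ORC1, -3.34 for ORC6, -1.52 for ORC3 and -0.40 for ORC2. In polymerase epsilon, they were -3.87 for POLE2, -1.87 for POLE, -0.38 for POLE3 and 0.58 for POLE4. In polymerase delta, they were -2.51 for POLD1, -2.11 for POLD3, -0.50 for POLD2 and 1.10 for POLD4. The clamp loader was less divided, with RFC1 at -1.77 and the 4 small subunits from -3.36 to -2.42, and GINS4, at -2.48, lay near GINS3. PRIM2, the large primase subunit, was at -2.11, and DBF4B, another activator of CDC7, at -1.69. The catalytic subunit RNASEH2A of RNase H2, which removes RNA from DNA, was at -2.77, RNASEH2B at -1.08 and RNASEH2C at -0.36. POLE3 and POLE4 also belong to chromatin complexes outside the polymerase. Differences between subunits are described here by their estimates and SEs and were not tested against each other. Of RNASEH2C's exon length, 28.2% overlaps KAT5 on the opposite strand.

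**Figure D5:**
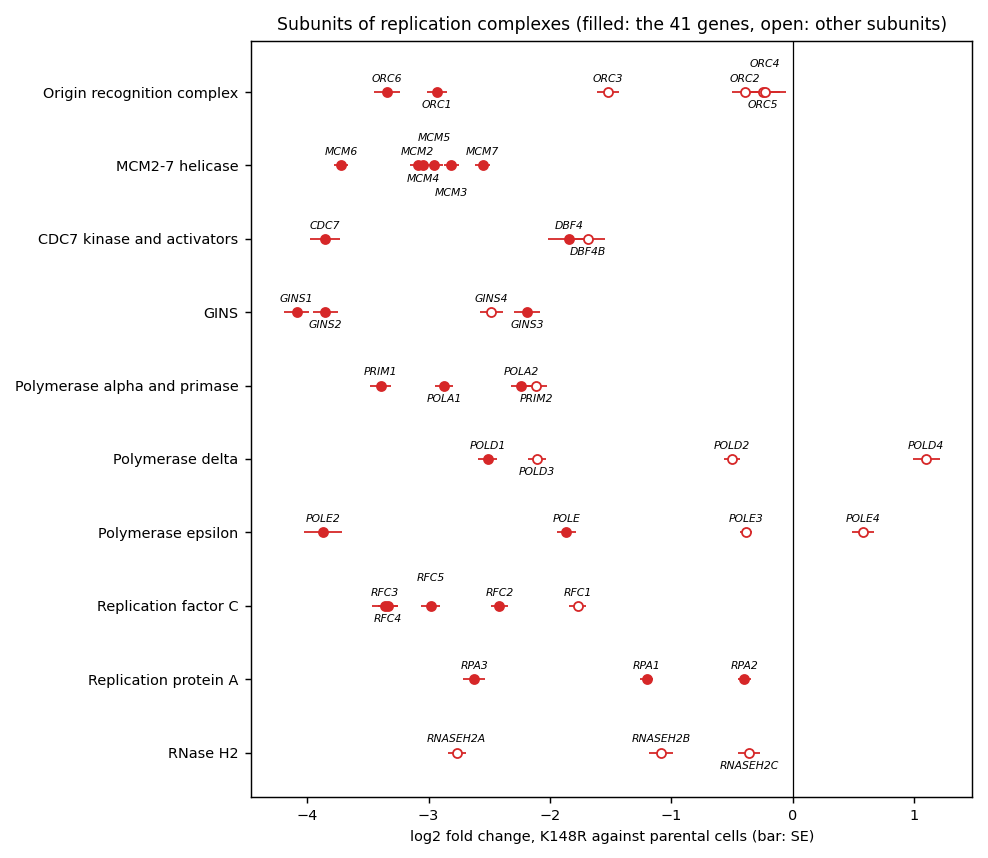
Log2 fold change in K148R against parental cells (horizontal axis, bars show the SE) of the subunits of 10 replication complexes, with the 41 genes filled and other subunits open. The 6 MCM subunits lie together between -3.72 and -2.55, whereas the origin recognition complex and polymerases delta and epsilon spread from below -2 to near or above 0.

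Of 14 polymerase genes outside the fork, which act in repair, in lesion bypass and in mitochondria, 8 fell and 3 rose in K148R against parental cells (median -0.59), where 37.3% of all genes were called lower and 37.8% higher. POLQ, the polymerase of microhomology-mediated end joining, fell from 56.3 ± 2.46 to 6.62 ± 0.542 CPM and PRIMPOL, a primase that restarts stalled forks, from 23.3 ± 0.969 to 7.78 ± 0.942 CPM. POLN, POLM and REV3L rose, POLN from a low level (0.789 ± 0.0732 to 2.61 ± 0.587 CPM) and POLM and REV3L by 0.26 and 0.29 on the log2 scale. The call of POLM was lost in 7 of 19 alternatives, among them those without parental replicate 2 or 3 or K148R replicate 1 or 2 (edgeR adjusted p up to 0.101 in these). POLG, the mitochondrial polymerase, POLH and REV1 did not pass (0.02, -0.01 and 0.01). In K148Q against parental cells 2 of the 14 rose and 4 fell, against 27% and 26.3% of all genes. With upper quartile scaling 1 rose and 5 fell, against 23.7% and 29.7%. POLB, the base excision repair polymerase, had the largest change of the 14 in K148Q cells, from 24.1 ± 0.904 to 12.7 ± 0.587 CPM. POLB also fell in K148R cells, to 13.6 ± 0.516 CPM, and the difference between the mutants did not pass (0.11, edgeR adjusted p = 0.319). It is named after its values were seen.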

How the data were processed

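RNA sequencing libraries of 3 parental, 3 K148Q and 3 K148R samples of MV411 were used, grouped by the genotype in the labels. The authors deposited raw read counts per gene symbol, not normalised. Tools listed by the submitters' processing notes are HISAT2 2.0.5, FastQC 0.11.7 and featureCounts 1.5.2, with GRCh38 as the build. The sources used here give no options, annotation or strand of counting. Every column belonged to a sample of the series.

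Counts were fitted with edgeR 4.0.16 in R 4.3.3 on the whole table: filterByExpr by group left 12845 genes, libraries were scaled by TMM, all 9 libraries shared 1 fit with a term per genotype, and contrasts used the robust quasi-likelihood F test with Benjamini-Hochberg adjustment over all genes, called under 0.05. SEs are the log2 fold change divided by the root of F. An exact permutation of 3 against 3 libraries cannot give a p below 0.1, so none was used. Single members had from 34 counts (CHAF1B in a K148R library) to 20175 (MCM4 in a parental library). Precision also depended on the spread between libraries. In K148Q against parental cells the SE was 0.164 for DBF4, whose K148Q libraries were split, and 0.0746 for CCNE1, which had fewer counts.

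Same-numbered K148Q and K148R libraries deviated together from their group means (correlations across 9058 genes of 0.113 to 0.574), so the number pairs them here by a rule of over 0.1 for every pair. This is a weak basis: differently numbered pairs ran from -0.519 to 0.441, and K148Q replicate 2 correlated more with K148R replicate 1 (0.441) than with replicate 2 (0.113). Same-numbered parental libraries did not (0.024 to 0.109 with K148Q, -0.018 to 0.054 with K148R). The fit had no replicate term.

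Positions, exon lengths and transcript GC content came from GENCODE v29 (GRCh38), promoters from RefSeq (GRCh38.p14). Values in every library are given for MCM2 to MCM7, in each other role for the members that fell most and least in K148R against parental cells, and for the 6 members with the largest called change in K148Q. Of the other lists, the 3 largest changes and up to 6 genes that did not pass or moved against the majority are named, as are the other subunits of the members' complexes. The members and lists were chosen with earlier results of these data known. DESeq2 1.42.0, limma-voom (limma 3.58.1), other scalings and filters, a replicate term, fits of 2 groups, a 1.5-fold threshold and leaving out each library were tried. The result of 1 further list of cell type markers is not reported here.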

Additional observations from a re-analysis of the deposited data

How the results depend on the processing

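All 41 replication genes stayed lower in K148R than in parental and in K148Q cells under each alternative, except RPA2 against a 1.5-fold threshold. In K148Q against parental cells, that threshold left 0 of 41 lower and 0 higher, against 6.41% and 5.78% of all genes. Upper quartile scaling gave 2 higher (median -0.10), against 23.7% of all genes, whose median was -0.051. Library size alone gave 7 higher, against 28.5%. Leaving out 1 library gave 2 to 11 higher, against 22.6% to 32.4% of all genes, with medians from -0.091 to -0.055. Of 779 member results in that comparison, 46 lost and 32 gained a call and none reversed. With library size alone the median of K148R against K148Q was -3.01. Over all genes the threshold called 1567, 4877 and 4191 in place of 6848, 9649 and 9126, for K148Q and for K148R against parental cells and for the mutants against each other.

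In the main fit of K148R against K148Q cells, 32 of the 40 other replication genes were lower and 3 higher (median -1.90). Of the 14 polymerases outside the fork 7 were lower and 2 higher there (median -0.29), against 34.5% and 36.6% of all genes. For the other replication genes the threshold gave 0 lower and 1 higher in K148Q against parental, 2 higher in K148R against parental and 0 higher in K148R against K148Q cells. Over all genes the threshold called 6.41% lower and 5.78% higher in K148Q and 19% higher in K148R against parental cells. In K148R against K148Q cells it called 15.7% lower and 17% higher. Upper quartile scaling moved the K148Q median of the other replication genes to -0.077. Leaving out 1 library gave 6 to 15 higher in K148Q cells (22.6% to 32.4% of all genes), with medians from -0.078 to -0.012. In K148R against K148Q cells it gave 3 to 5 higher (34.2% to 38% of all genes). For polymerases outside the fork the threshold gave 1 lower and 0 higher in K148Q against parental, 1 higher in K148R against parental, and 4 lower and 1 higher in K148R against K148Q cells. Upper quartile scaling gave 1 of these polymerases higher in K148Q cells (median -0.063), against 23.7% of all genes. Leaving out 1 library gave 1 to 3 higher (22.6% to 32.4% of all genes), with medians from -0.064 to 0.004. The last median, without K148Q replicate 3, turned the sign. In K148R against K148Q cells 1 was higher with library size alone (median -0.35, 33.4% of all genes higher) and with no filter (27.6%). The count was also 1 in a fit of only these groups (33.4%), and 1 to 2 when 1 library was left out (34.2% to 38%). Upper quartile scaling put that median at -0.25. The cause was not tested.

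With the replicate block 15 of the 41 were lower and 6 higher in K148Q against parental cells, against 28.5% and 28% of all genes. All 41 were lower in K148R against parental and against K148Q cells (median -2.94 against K148Q), where 38.2% and 35.6% of all genes were lower. For parental cells, whose numbers pair with no other group, the block is a check of the fit.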

Other observations

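Levels of different genes can be compared only per length. Per kilobase of merged GENCODE exons, which may not be the annotation used for counting, PCNA ranked first of the 41 genes in all 3 genotypes, at 412 CPM per kb in parental, 364 CPM per kb in K148Q and 122 CPM per kb in K148R libraries. MCM4, MCM6, MCM3 and MCM7 followed in parental cells, at 173, 157, 157 and 153 CPM per kb. In K148R cells RPA2 (63.8 CPM per kb) and SLBP (37.6) came next. MCM10 went from rank 26 in parental to rank 40 in K148R cells (23.9 to 0.72 CPM per kb) and CHAF1B was last there, at 0.603. Within MCM2 to MCM7 the highest level was 3.23 times the lowest in parental, 2.61 times in K148Q and 3.77 times in K148R cells. Within replication protein A this ratio was 5.29, 7.41 and 24.8. The signed log2 fold change of K148R against parental cells had a weak positive correlation with the log2 parental level per kb across the 41 genes (Spearman 0.23, Pearson 0.26), with smaller falls at higher levels. The genes share the same libraries.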
